A study of Homo sapiens with 9 samples.

Results

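The pyruvate dehydrogenase complex and the enzymes that switch it off and on were followed in 10 genes: the kinases PDK1, PDK2, PDK3 and PDK4, the phosphatases PDP1 and PDP2, and the complex subunits PDHA1, PDHB, DLAT and PDHX. The members were chosen by name, through the RefSeq symbol of each probe's accession, and the choice was made with earlier results of these data known. They were read by 15 of the 58201 probes on the array and made up 10 of its 47753 gene names. RNA came from OEC-M1, an established line of oral squamous carcinoma cells, and was hybridized with 1 dye to 9 Agilent arrays. There were 3 groups of 3 arrays, of cells given non-targeting siRNA (si-Control), siRNA to GATA3 (GATA3 knockdown) or siRNA to HIF-1α (HIF-1α knockdown). Cells of every group were transfected for 72 h and kept at 1% O2 for 18 h, so si-Control cells were hypoxic too and no normoxic array was analysed here. The methods list 2 siRNAs for each target, and a supplementary legend gives 1 of them for the expression profiles, so loss of the target cannot be told apart from other effects of that siRNA. The numbers 1 to 3 in the sample titles, which run in all 3 groups, were read as replicate numbers. The siRNAs to each target are numbered too, though only 1 and 2, and the labels do not say which is meant. The labels do not say whether the 3 arrays of a group came from separate cultures, and the P values measure the spread between these arrays only.

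The pyruvate dehydrogenase complex sits in the mitochondrial matrix and turns pyruvate, the end product of glycolysis, into acetyl-CoA for the citric acid cycle. The E1 component, made of the PDHA1 and PDHB proteins, decarboxylates pyruvate, the E2 component DLAT passes the acetyl group to coenzyme A, and PDHX anchors E3, the DLD protein, to the E2 core. PDH kinases phosphorylate PDHA1 and stop the complex, and PDH phosphatases remove the phosphates and restart it. HIF-1, the heterodimer of HIF-1α and HIF-1β that accumulates when oxygen is low, binds hypoxia response elements (HREs), whose core is ACGTG or GCGTG. PDK1 is a textbook HIF-1 target, and its kinase steers pyruvate away from mitochondria and towards lactate. GATA3 is a zinc-finger transcription factor that binds GATA motifs.

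Promoter sequences are shown for PDK1 and PDK3, the 2 members that fell in HIF-1α knockdown. RefSeq windows run from 250 bases before to 50 bases after a transcript start, in GRCh38.p14. They are printed 5′ to 3′ on the strand of the gene, which is the plus strand for both, and capitals mark matches on either strand to an HRE core (ACGTG or GCGTG) or to a GATA motif (AGATAA or AGATAG or TGATAA or TGATAG). RefSeq gives 2 starts for PDK1.
PDK1, chr2:172555840-172556139: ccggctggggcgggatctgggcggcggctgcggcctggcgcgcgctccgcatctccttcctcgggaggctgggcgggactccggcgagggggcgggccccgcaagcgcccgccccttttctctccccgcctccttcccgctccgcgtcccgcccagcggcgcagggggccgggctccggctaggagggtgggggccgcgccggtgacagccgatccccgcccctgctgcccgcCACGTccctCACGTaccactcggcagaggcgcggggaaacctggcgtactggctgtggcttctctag
PDK1, chr2:172555123-172555422: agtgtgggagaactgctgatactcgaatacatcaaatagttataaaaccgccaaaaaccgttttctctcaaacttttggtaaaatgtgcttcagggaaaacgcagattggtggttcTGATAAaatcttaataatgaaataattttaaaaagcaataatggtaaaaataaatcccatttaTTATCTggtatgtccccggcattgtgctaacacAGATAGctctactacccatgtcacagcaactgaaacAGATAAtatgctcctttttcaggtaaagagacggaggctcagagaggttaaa
PDK3, chrX:24465036-24465335: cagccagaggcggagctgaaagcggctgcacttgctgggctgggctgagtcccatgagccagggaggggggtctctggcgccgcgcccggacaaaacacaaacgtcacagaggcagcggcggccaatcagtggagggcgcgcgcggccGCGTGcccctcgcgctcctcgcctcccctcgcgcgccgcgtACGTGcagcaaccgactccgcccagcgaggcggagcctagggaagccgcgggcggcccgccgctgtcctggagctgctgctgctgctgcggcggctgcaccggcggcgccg
The first PDK1 window held 2 HRE cores, both ACGTG on the minus strand, which begin at positions -17 and -8 from the transcript start, and it held 0 GATA motifs. The second PDK1 window held 0 HRE cores and 4 GATA motifs. PDK3 had 2 HRE cores, GCGTG at position -102 and ACGTG at position -61, and 0 GATA motifs. These matches did not set the fallen kinases apart from the other members. Of the 9 members whose windows were read, which leaves out PDP1, 8 had an HRE core in at least 1 window and 2 (PDK1 and PDHA1) had a GATA motif. These 9 members had 13 windows between them. PDHB, whose intensity did not pass the test in any comparison, held 6 HRE cores, the PDK4 window held 0, and 1 of the 3 PDK2 windows held 3. Over all 35116 windows in the table, 48.4% held an HRE core and 23.1% held at least 2, counting overlapping matches on the 2 strands separately. A GATA motif was in 25% of all windows, and 1.37% held at least 3. These shares are of single windows, whereas a member with several windows was counted if any of them matched, so the 2 cannot be set against each other. A match is only a run of letters, and binding of HIF-1α or GATA3 at these windows was not measured on the arrays.

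The knockdowns were first checked in their target transcripts. HIF1A log2 intensity was 16.71, 16.24 and 17.24 on the si-Control arrays and 14.51, 14.13 and 14.59 on the HIF-1α knockdown arrays. HIF1A was thus lower on every HIF-1α knockdown array, by 4.997-fold (limma, unadjusted P = 6.16e-05, adjusted P = 0.295). GATA3 log2 intensity was 10.71, 11.12 and 11.48 in si-Control and 9.64, 9.48 and 10.40 in GATA3 knockdown, a fall of 2.40-fold (limma, unadjusted P = 0.00371, adjusted P = 1.00) with no overlap between the groups. As the arrays measured bulk RNA, fewer cells with a transcript and less of it per cell cannot be told apart. Before normalization, median spot intensity ran from 992.5 to 3560 between arrays, and 74.3 to 88.5% of probes were well above background by the scanner software's test. The dimmest array, si-Control replicate 3, gave the highest value of its group for 9 of the 10 members, GATA3 knockdown replicate 2 the lowest for 8 and HIF-1α knockdown replicate 1 the lowest for 7. Of 8 squamous epithelial markers, 6 were well above background on all 9 arrays and KRT5 on none. Of 7 blood and endothelial markers 6 were well above background on all arrays, as were 2 of 6 fibroblast markers, while the fibroblast genes COL3A1 and LUM were not above background on any.

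To ask which members depend on HIF-1α in hypoxic cells, HIF-1α knockdown was compared with si-Control. PDK1 and PDK3 fell, and the other 8 members did not pass the test. Calls in either direction (limma, unadjusted P under 0.05, two-sided) were made for 5.23% of the 47368 genes tested, and calls of a lower gene for 3.28%. None of the 10 members passed at an adjusted P of 0.05, the lowest being 0.534, and 0 genes of the whole array did, while the methods' t-test called the same 2 members at an unadjusted P of 0.05. The median change of the 10 members was -0.22 on the log2 scale, beside -0.01 over all genes tested.

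PDK1, the kinase best known as a hypoxia gene, had normalized log2 intensities of 13.52, 13.97 and 14.78 in si-Control, 15.04, 13.92 and 14.93 in GATA3 knockdown, and 12.07, 12.36 and 12.51 in HIF-1α knockdown. Every HIF-1α knockdown array was below every array of the other groups, and the si-Control and GATA3 knockdown arrays overlapped. PDK1 fell in HIF-1α knockdown by 1.78 on the log2 scale (SE 0.39, 95% CI -2.65 to -0.91; limma, unadjusted P = 0.00104, adjusted P = 0.534), which is 3.43-fold (95% CI 1.88 to 6.26). On the 3 slides, each of which carried 1 array of every group, the difference was -1.45, -1.61 and -2.27, so it held on each slide. In all 9 fits that left out 1 array the change lay between -2.05 and -1.43, and in 14 other ways of processing between -1.84 and -1.29, each with an unadjusted P under 0.05. The value nearest to 0 came from the fit with array brightness as a covariate. On slides 1 to 3 the median raw intensity was 3560, 2132 and 2502.5 for HIF-1α knockdown and 2807.5, 2126.5 and 992.5 for si-Control. The ranges of the 2 groups overlapped, and the arrays of slide 2 were nearly equal. As the HIF-1α knockdown array was the brighter on each slide, brightness and group were not fully separate.

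**Figure D1:**
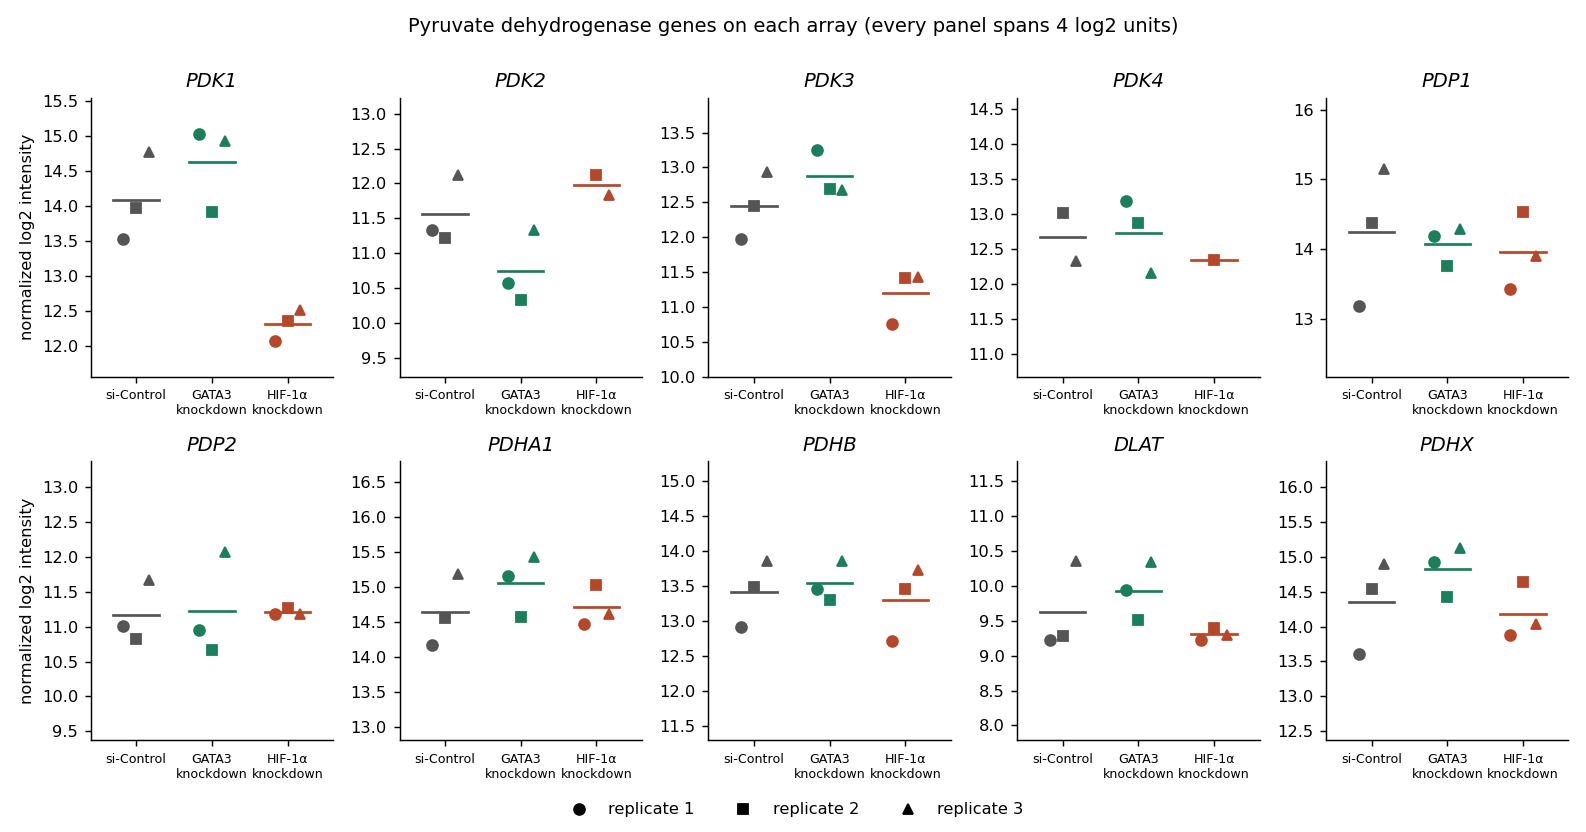
Normalized log2 intensity (y axis, 4 units in every panel) of the 10 members in the si-Control and the 2 knockdown groups (x axis), with 1 point per array, its shape giving the replicate, and a line at the group mean. PDK1 and PDK3 are lowest on the 3 HIF-1α knockdown arrays, without overlap, whereas the groups of the phosphatases and of the complex subunits overlap si-Control, and values missing for PDK2 and PDK4 are spots marked as non-uniform.

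PDK3, a kinase of the same family, was read by 2 probes, designed for 2 RefSeq transcripts. The brighter, for NM_001142386, gave log2 intensities of 11.97, 12.45 and 12.93 in si-Control, 13.25, 12.69 and 12.68 in GATA3 knockdown, and 10.75, 11.42 and 11.43 in HIF-1α knockdown. Here too all 3 HIF-1α knockdown arrays were lower than any other array. PDK3 fell by 1.25 on the log2 scale (SE 0.32, 95% CI -1.96 to -0.53; limma, unadjusted P = 0.00315, adjusted P = 0.705), a fold of 2.37, with slide differences of -1.21, -1.03 and -1.50. The second probe, for NM_005391, read 12.10, 12.10 and 13.10 in si-Control, 13.31, 12.58 and 13.27 in GATA3 knockdown, and 10.66, 11.16 and 11.22 in HIF-1α knockdown. It fell by 1.42 (limma, unadjusted P = 0.00202, adjusted P = 0.588), and both probes fell on each slide. Leaving out each array gave -1.59 to -1.0 and the other processing -1.48 to -0.92 for the brighter probe, each with an unadjusted P under 0.05.

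PDK2 and PDK4, the remaining kinases, did not pass the test in HIF-1α knockdown. The brighter PDK2 probe, for NM_002611, read 11.34, 11.22 and 12.13 in si-Control and 12.13 and 11.83 on 2 HIF-1α knockdown arrays. The spot on HIF-1α knockdown replicate 1 was marked as non-uniform and dropped, so the change of 0.42 (95% CI -0.47 to 1.30; limma, unadjusted P = 0.315) rests on 2 arrays of that group. The 2 slides with both groups disagreed, at 0.91 and -0.30. A dimmer PDK2 probe changed by -0.31 (limma, unadjusted P = 0.353) and was lower on each of the 3 slides. For PDK4, a kinase known to rise in fasting, non-uniform marks removed si-Control replicate 1 and HIF-1α knockdown replicates 1 and 3, which left 13.02 and 12.32 in si-Control and 12.34 in HIF-1α knockdown. The change of -0.33 (95% CI -1.63 to 0.96) rests on 1 HIF-1α knockdown array, which is assumed to vary like the other groups. With non-uniform spots kept, PDK4 changed by -0.0031 (limma, unadjusted P = 0.995). The interval includes a change as large as that of PDK3, so these arrays do not show whether PDK4 differed.

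Whether the kinases changed unequally was tested on the difference between PDK1 and each other kinase within an array, with a two-sided exact permutation test, in 6 tests. In HIF-1α knockdown the change of PDK1 less that of PDK2 was -2.08 (exact permutation P = 0.1, with 3 against 2 arrays). It was -0.53 against PDK3 (exact permutation P = 0.1) and -1.68 against PDK4 (exact permutation P = 0.667, with 2 against 1 array). In GATA3 knockdown the differences were 1.35 for PDK2 (exact permutation P = 0.1), 0.11 for PDK3 (P = 0.8) and 0.19 for PDK4 (P = 0.7). These tests read PDK2 by its brighter probe. The dimmer PDK2 probe changed by -0.31 in HIF-1α knockdown and by 0.39 in GATA3 knockdown, where PDK1 changed by 0.54. Its difference from PDK1 was not tested. The smallest P that 3 against 3 arrays can give is 0.1, and adjusted over the 6 tests the values were 0.2 to 0.8. PDK1 thus lay lower against the brighter probes of PDK2 and PDK3 on every HIF-1α knockdown array with a value than on every si-Control array. With so few arrays the test could not pass 0.05.

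The phosphatases, which reverse the kinases, did not pass the test in HIF-1α knockdown. PDP1 read 13.19, 14.37 and 15.15 in si-Control and 13.43, 14.54 and 13.91 in HIF-1α knockdown, a change of -0.28 (95% CI -1.33 to 0.77). The si-Control arrays alone spanned more than this change, and the slides gave 0.24, 0.16 and -1.25. PDP2 had 4 probes, of which the brightest read 11.00, 10.83 and 11.66 in si-Control and 11.19, 11.27 and 11.18 in HIF-1α knockdown, a change of 0.05 (95% CI -0.78 to 0.88). Its other probes changed by -0.26, -0.03 and 0.68, where non-uniform marks removed HIF-1α knockdown replicate 1 from the first and both replicate 1 arrays from the last, which leaves 2 arrays against 2. So 2 of the 4 probes had a higher and 2 a lower mean, and none passed the test.

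None of the subunits of the complex passed the test in HIF-1α knockdown. PDHA1, the E1α subunit that the kinases phosphorylate, read 14.17, 14.55 and 15.19 in si-Control and 14.48, 15.03 and 14.62 in HIF-1α knockdown, a change of 0.07 (95% CI -0.67 to 0.81). PDHB, its E1β partner, read 12.92, 13.48 and 13.86 against 12.72, 13.46 and 13.73, a change of -0.12 (95% CI -0.88 to 0.65). DLAT, the E2 acetyltransferase, read 9.23, 9.29 and 10.35 against 9.22, 9.40 and 9.30, a change of -0.32 (95% CI -1.08 to 0.45). All 3 genes had overlapping groups. PDHX, the E3-binding protein, read 13.61, 14.53 and 14.90 against 13.87, 14.64 and 14.04, a change of -0.16 (95% CI -0.99 to 0.66). Among the 4 subunits the changes ran from -0.32 to 0.07. No interval reached down to the PDK1 estimate of -1.78, but those of DLAT and PDHX overlapped the PDK1 interval, -2.65 to -0.91. All 4 overlapped the PDK3 interval, -1.96 to -0.53. Whether the subunits changed less than these kinases was not tested.

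**Figure D2:**
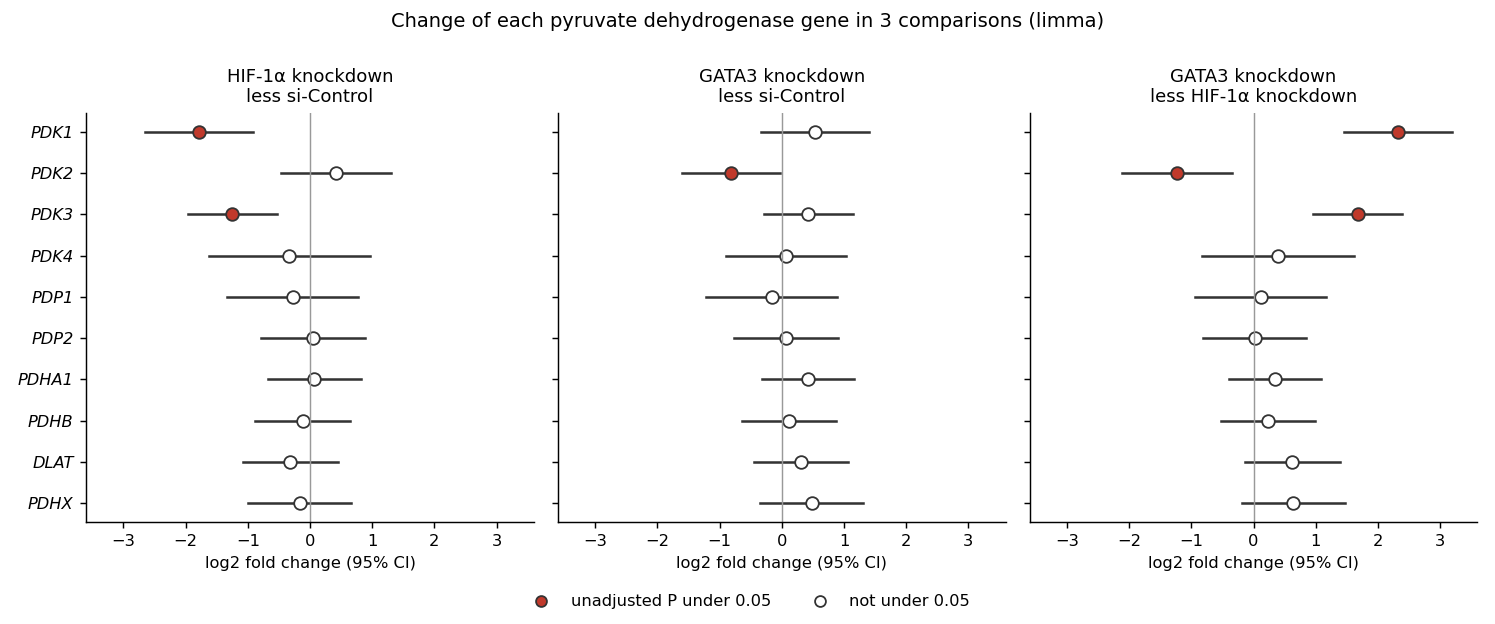
Log2 fold change (x axis) of each of the 10 members in HIF-1α knockdown less si-Control, GATA3 knockdown less si-Control, and GATA3 knockdown less HIF-1α knockdown, from limma on 9 arrays. Bars are 95% confidence intervals and filled points had an unadjusted P under 0.05: PDK1 and PDK3 on the left, PDK2 in the middle, and all 3 of these kinases on the right.

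GATA3 knockdown was compared with si-Control to ask which members depend on GATA3. Of the 10 members 1 passed the test, PDK2, which was lower, beside 2.97% of the 47720 genes tested. The median change of the 10 members was 0.21, beside -0.02 over all genes. None passed after adjustment over all genes, where the lowest adjusted P was 1.00 among members and 0 genes of the array passed. The 3 si-Control arrays serve both knockdowns, so the changes in the 2 comparisons share the spread of those arrays.

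PDK2, the most widely expressed PDH kinase, read 10.58, 10.33 and 11.33 on the GATA3 knockdown arrays, against 11.34, 11.22 and 12.13 in si-Control. The groups overlapped by a narrow margin, since GATA3 knockdown replicate 3 lay above si-Control replicate 2, yet within slides the difference was -0.76, -0.88 and -0.80. PDK2 fell by 0.82 on the log2 scale (SE 0.35, 95% CI -1.61 to -0.02; limma, unadjusted P = 0.0453, adjusted P = 1.00), or 1.76-fold. A dimmer probe for another PDK2 transcript, NM_001199900, did not follow: it read 9.28, 9.53 and 10.06 in si-Control, 10.16, 9.43 and 10.45 in GATA3 knockdown and 9.15, 9.40 and 9.41 in HIF-1α knockdown. That probe changed by 0.39 in GATA3 knockdown (limma, unadjusted P = 0.247), in the opposite direction on 2 of 3 slides. With the mean of both probes the PDK2 change was -0.21 (limma, unadjusted P = 0.649), and the call was lost. It was also lost in 5 of the other 13 ways of processing and in 5 of 9 fits that left out an array, including the fit without si-Control replicate 3, where the change was -0.53 (limma, unadjusted P = 0.149).

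PDK1 and PDK3, the kinases that fell in HIF-1α knockdown, were not called in GATA3 knockdown. PDK1 changed by 0.54 (95% CI -0.33 to 1.41; limma, unadjusted P = 0.196), with slide differences of 1.52, -0.05 and 0.15. The interval leaves out a fall as large as in HIF-1α knockdown. Slide 1 alone was more than 1 unit from 0. PDK3 changed by 0.43 (limma, unadjusted P = 0.216) with slide differences of 1.28, 0.25 and -0.25, and its second probe by 0.62 (limma, unadjusted P = 0.101). Without si-Control replicate 3, PDK1 was called higher in GATA3 knockdown, at 0.88 (limma, unadjusted P = 0.0369), and without GATA3 knockdown replicate 2, PDK1 and PDK3 were both called higher, at 0.89 and 0.86. PDK4 read 13.19, 12.87 and 12.15 in GATA3 knockdown and changed by 0.06 (95% CI -0.90 to 1.03), or by -0.35 with non-uniform spots kept.

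**Figure D3:**
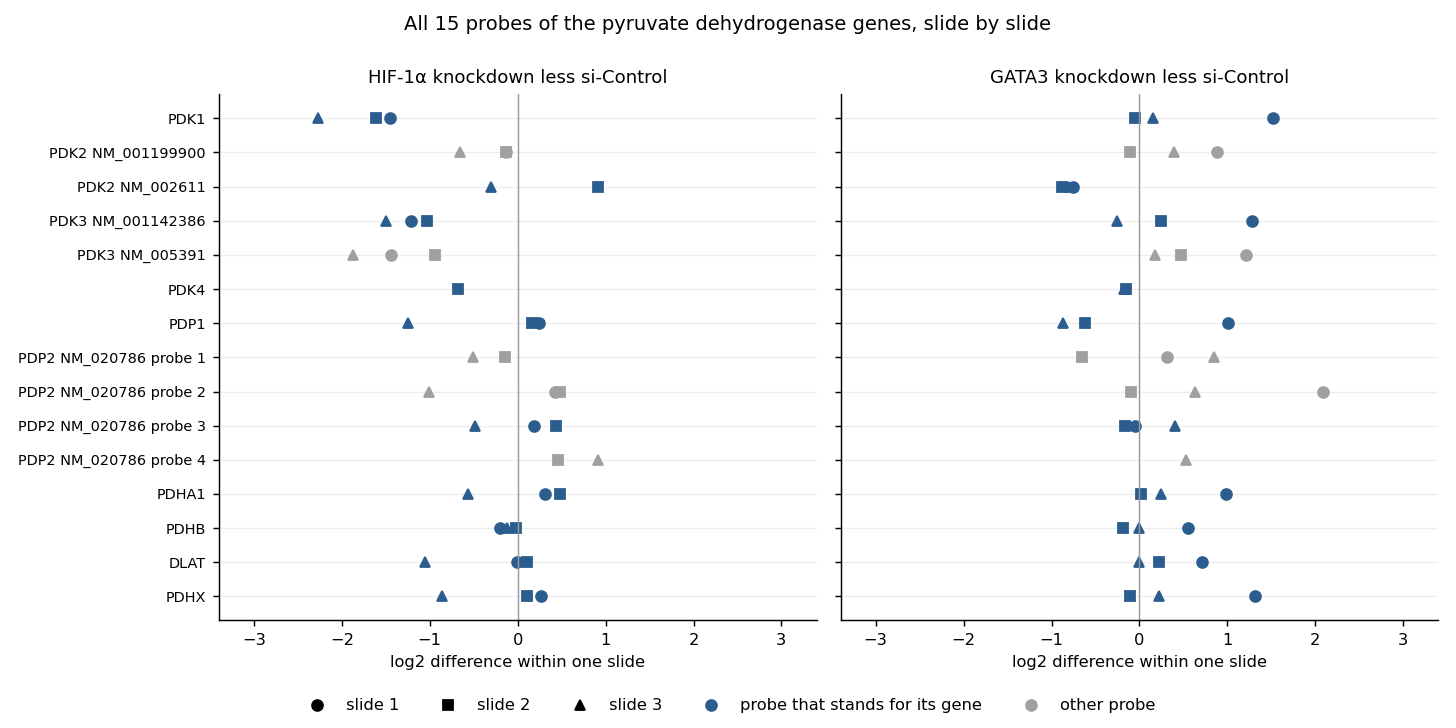
Log2 difference from si-Control within a slide (x axis) for each of the 15 probes (y axis) in HIF-1α knockdown and GATA3 knockdown, with 1 symbol per slide, blue for the probe that stands for its gene and grey for the gene's other probes. PDK1 and both PDK3 probes lie below 0 on every slide in HIF-1α knockdown, and the 2 PDK2 probes lie on opposite sides of 0 on 2 slides in GATA3 knockdown.

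The phosphatases and subunits did not pass the test in GATA3 knockdown either. PDP1 read 14.19, 13.75 and 14.28 (change -0.16, 95% CI -1.22 to 0.89), and the brightest PDP2 probe read 10.96, 10.67 and 12.07 (change 0.07, 95% CI -0.76 to 0.90). The other PDP2 probes changed by 0.17, 0.88 (limma, unadjusted P = 0.101) and 0.38, the last on 2 arrays of each group. All 4 PDP2 probes thus had a higher mean, and none passed the test. Among the subunits, PDHA1 read 15.16, 14.57 and 15.43, a change of 0.42 (95% CI -0.33 to 1.16), and PDHX read 14.92, 14.43 and 15.13, a change of 0.48 (95% CI -0.35 to 1.31). DLAT read 9.95, 9.51 and 10.34, a change of 0.31, and PDHB read 13.46, 13.29 and 13.85, a change of 0.12. All 4 subunits had a mean above si-Control, with changes of 0.12 to 0.48. Slide 1 gave the largest difference for each of them, from 0.55 for PDHB to 1.32 for PDHX, and si-Control replicate 1, the control array on that slide, was the lowest of its group for 7 of the 10 members.

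The knockdowns were then compared directly. There si-Control values entered only through the shared spread, the normalization of all 9 arrays together and the choice of the brightest probe. Of the 10 members 3 passed the test, beside 12.0% of the 47356 genes tested. GATA3 knockdown arrays had more PDK1, by 2.32 on the log2 scale (95% CI 1.45 to 3.19; limma, unadjusted P = 1.44e-04, adjusted P = 0.134), a fold of 4.99. PDK3 was higher by 1.67 (95% CI 0.95 to 2.39; limma, unadjusted P = 4.18e-04, adjusted P = 0.160) and its second probe by 2.04. In both kinases the 2 groups did not overlap. PDK2 was lower in GATA3 knockdown by 1.23 (95% CI -2.12 to -0.34; limma, unadjusted P = 0.0120, adjusted P = 0.362), again on 2 HIF-1α knockdown arrays, whereas the dimmer PDK2 probe was higher by 0.70 (limma, unadjusted P = 0.0523). PDK1 and PDK3 kept their direction and an unadjusted P under 0.05 in the 14 other ways of processing and in the 9 fits without 1 array. The adjusted P of PDK1 ran from 0.0476 to 0.440 over the 14 other ways of processing. Over the 9 fits without 1 array it ran from 0.0409 to 0.564. It was 0.0481 with the slide as a block, 0.0476 with array brightness as a covariate and 0.0409 without si-Control replicate 3. Among the other members, DLAT was higher by 0.63 (95% CI -0.14 to 1.39; limma, unadjusted P = 0.0967) with no overlap between the groups, and PDHX by 0.64 with overlap.

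**Figure D4:**
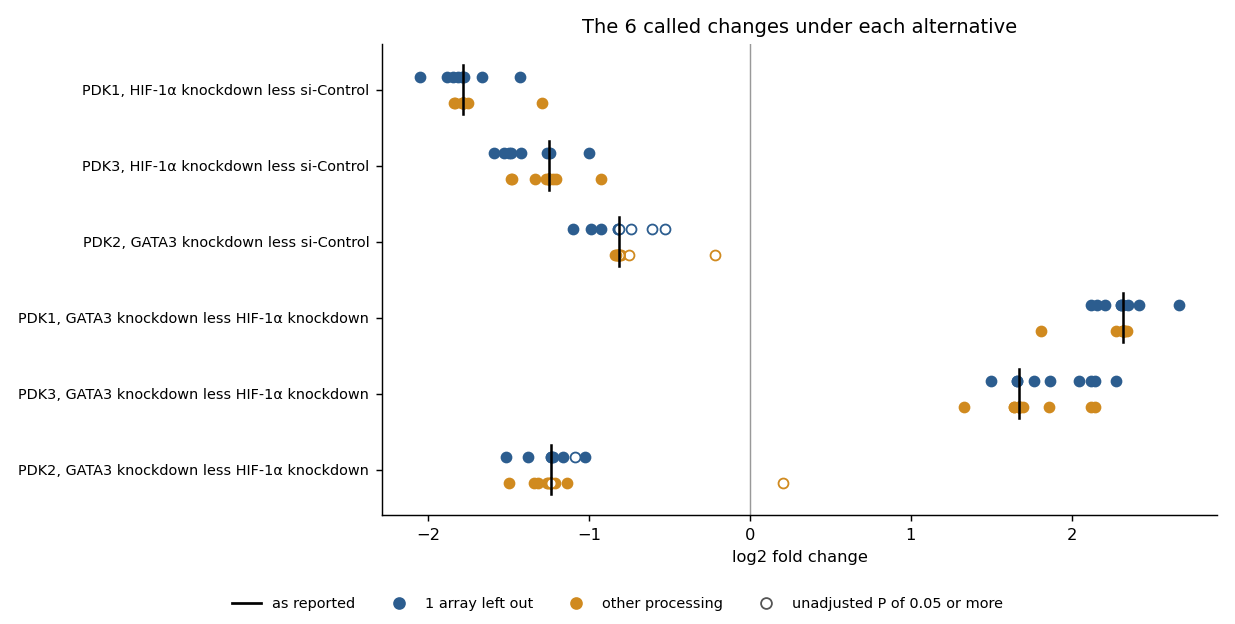
Log2 fold change (x axis) of the 6 called kinase changes (y axis) as reported (black line), with 1 array left out (blue) and with other processing (orange), where open points had an unadjusted P of 0.05 or more. PDK1 and PDK3 stay on 1 side of 0 with filled points throughout, whereas PDK2 has open points in both comparisons and lies at 0.20 in the direct one with the mean of its probes.

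Genes that feed pyruvate to the complex, take it elsewhere or carry on its work were set beside the members. None of 10 genes for partners and cofactors of the complex, 12 for pyruvate supply and its other fates, 9 of the sister dehydrogenase complexes, 15 of the citric acid cycle and 12 transcription regulators of PDK genes passed the test in HIF-1α knockdown or GATA3 knockdown (14 of the citric acid cycle genes could be tested in HIF-1α knockdown). The list medians in HIF-1α knockdown were -0.03, -0.22, 0.05, -0.07 and -0.13 in that order. Over all genes 5.23% were called in HIF-1α knockdown and 2.97% in GATA3 knockdown, and at those shares lists this short would hold few calls. DLD, the E3 subunit shared with the sister complexes, changed by 0.24 in HIF-1α knockdown and by 0.01 in GATA3 knockdown. MPC1 and MPC2, which carry pyruvate into mitochondria, changed by 0.22 and -0.14 in HIF-1α knockdown and by -0.46 and -0.24 in GATA3 knockdown. Neither the E3 subunit nor the pyruvate carriers were called in any of the 3 comparisons.

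LDHA, the enzyme that turns pyruvate into lactate, read 18.72, 18.53 and 18.54 in si-Control, 18.76, 18.86 and 18.81 in GATA3 knockdown and 18.23, 18.40 and 18.28 in HIF-1α knockdown. The 3 groups did not overlap, with HIF-1α knockdown lowest and GATA3 knockdown highest. LDHA changed by -0.30 in HIF-1α knockdown (limma, unadjusted P = 0.174) and 0.21 in GATA3 knockdown, neither of which passed the test. In the direct comparison LDHA was higher in GATA3 knockdown by 0.51 (limma, unadjusted P = 0.0303, adjusted P = 0.396). LDHB, the lactate dehydrogenase of oxidative tissues, changed by 0.12 and 0.59, without a call. Also called in the direct comparison were GPT2, a mitochondrial alanine transaminase (2.37 higher in GATA3 knockdown), SLC16A3, a lactate exporter (0.63 higher), and PC, pyruvate carboxylase (0.50 lower). PPARD, a nuclear receptor known to raise PDK4, was 0.97 higher, and BCKDK, the kinase of the branched-chain sister complex and a relative of the PDKs, 0.55 lower in GATA3 knockdown. Their adjusted P values were 0.327 to 0.415. In this comparison 3 of the 12 pyruvate genes were called higher and 1 lower, with 1 of 9 sister complex genes and 1 of 12 regulators. Among partners and cofactors 0 of 10 were called, and 0 of 14 in the citric acid cycle. Over all genes 12.0% were called, so these calls do not set the pyruvate lists as a whole apart.

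**Figure D5:**
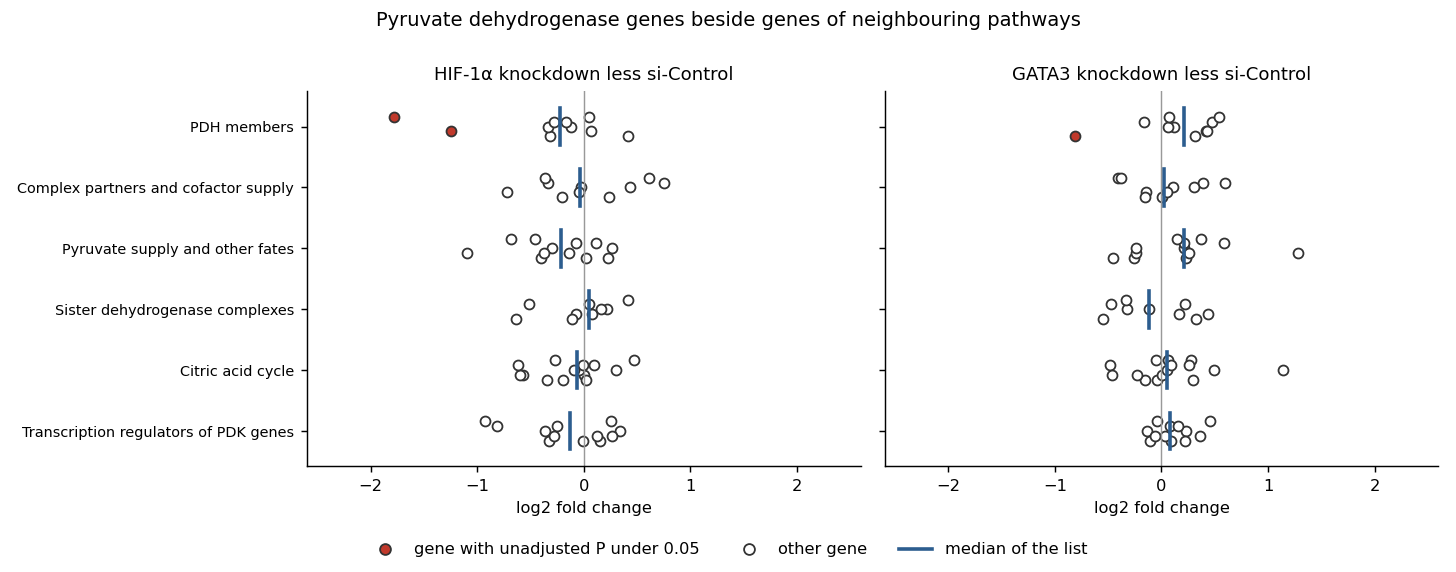
Log2 fold change (x axis) of each gene in the member list and in 5 lists around pyruvate (y axis), in HIF-1α knockdown and GATA3 knockdown less si-Control, with 1 circle per gene, filled where the unadjusted P was under 0.05, and a line at the list median. The filled circles are PDK1 and PDK3 at -1.78 and -1.25 in HIF-1α knockdown, and PDK2 at -0.82 in GATA3 knockdown. Open circles reach as far as PDK2, such as GPT2 at -1.10 and 1.28. Over all genes 5.23% and 2.97% were called in the 2 comparisons.

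Markers of squamous epithelium and of other cells were read in the same comparisons. In HIF-1α knockdown the blood marker HBB was called higher by 1.58, from 2 arrays of each group with a uniform spot. The 7 blood and endothelial markers did not move together: 4 had a higher and 3 a lower mean, with a median change of 0.49. The summed intensity of the 5 blood and endothelial markers measured on every array ran from 116792 to 122285 in HIF-1α knockdown, from 44996 to 116248 in si-Control and from 64714 to 110351 in GATA3 knockdown. Sums were taken on the linear scale, so this one mostly follows the PTPRC probe. PTPRC read 16.58, 16.64 and 16.64 on the log2 scale in HIF-1α knockdown, and VWF, the next brightest, 13.91, 13.48 and 13.91. In GATA3 knockdown all 8 squamous epithelial markers had a mean below si-Control, with a median change of -0.38. Among them EPCAM changed by -0.79 and CDH1 by -0.60, and 0 of the 8 passed the test. The 8 include KRT5, which was not well above background on any array. Over all genes, 24960 of the 47720 tested had a lower mean. The summed intensity of the squamous markers was 156523 to 451181 in GATA3 knockdown, 193719 to 688398 in si-Control and 266385 to 515640 in HIF-1α knockdown. Also in GATA3 knockdown 1 of 6 fibroblast markers, DCN, was called lower by 1.08, beside calls for 2.97% of all genes. Summed fibroblast intensity was 59399 to 100481, against 43633 to 102097 in si-Control. That sum mostly follows PDGFRB, which read 16.25, 16.60 and 15.84 in GATA3 knockdown, where DCN read 7.76, 8.51 and 8.15. In the direct comparison KRT6A, a squamous keratin, was called 1.48 lower in GATA3 knockdown, DCN 1.41 lower and HBB 0.91 lower. Calls were made there for 12.0% of all genes. In that comparison 7 of 8 squamous, 4 of 6 fibroblast and all 7 blood and endothelial markers had a lower mean. So did 23628 of all 47356 genes tested. The lists include KRT5, COL3A1 and LUM, which were not well above background on any array. On si-Control replicate 3, the dimmest array, PTPRC, PDGFRB and VWF read 15.22, 15.38 and 11.38, each the lowest of its group. The cells were of 1 established carcinoma line, and whether the blood, endothelial and fibroblast probes read such cells at all was not tested. The part of the marker differences in the changes of the kinases was not tested.

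The genes whose profile over the arrays was most like that of a called kinase were found by the root mean square (RMS) difference. It was taken on log2 intensities, each centred on its own mean. The search ran over named genes well above background on all 9 arrays, 15913 for PDK1 and PDK3 and 16304 for PDK2. For PDK1 the closest were INSIG2 (RMS difference 0.10), RBPJ (0.16), ANKZF1 (0.19), EGLN1 (0.19) and PLXNB3 (0.19), against a median of 1.03 over all genes compared. INSIG2, which holds back sterol synthesis, and EGLN1, the prolyl hydroxylase that marks HIF-1α for degradation, changed by -1.92 and -1.71 in HIF-1α knockdown, beside -1.78 for PDK1. PDK3 came 75th in likeness to PDK1, with an RMS difference of 0.39. The genes most like PDK3 were BNIP3L, a mitophagy receptor (0.15), ASPH (0.15) and IMP3 (0.17), which changed by -1.39, -1.09 and -1.10 in HIF-1α knockdown. For PDK2, over the 8 arrays with a value, the closest were APEH (0.15), RHOD (0.16) and PLS1 (0.17), which changed by -0.55, -0.58 and -0.66 in GATA3 knockdown. These distances describe the same arrays that gave the calls and share their spread. Genes picked for a like profile must also change alike, so their changes are no separate evidence.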

How the data were processed

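RNA of 9 hypoxic OEC-M1 samples was read on 1-dye arrays. The authors deposited, per array, Agilent Feature Extraction 10.5.1.1 output with median spot and background intensity, processed intensity and flags, on a linear scale and not normalized between arrays. They also deposited a log2 table, of which 99.8 to 99.9% of values lay within 0.001 of the log2 of that processed intensity after 1 shift per array, with the 75th percentile at 0. In R 4.3.3 with limma 3.58.1, non-uniform and control spots were dropped, median intensities (the files hold no means) were corrected by normexp with an offset of 50 and quantile normalized, which can hide a shift of all genes, and the brightest probe was used for each gene. RefSeq symbols matched 31104 probes. The 3 groups, taken from the transfection labels, were fitted with lmFit and eBayes without a filter on dim probes. Calls used an unadjusted P of 0.05, with Benjamini-Hochberg adjustment over all genes, and the fit was tested on simulated data. Title numbers, which could also be siRNA numbers, were read as replicates and match the 3 slides. Each group had 1 position on every slide, so position and group cannot be told apart. Members, lists and tests were chosen with earlier results of these data known. Genes named are the members, knockdown targets, DLD, LDHA, LDHB, MPC1, MPC2, BCKDK, called list genes well above background on the 3 arrays of a group, and the closest profiles (5 for PDK1, 3 for other called members). For 1 marker gene no result is given here. The alternatives were other background corrections, scalings, filters, probe rules and fits, a replicate block, array brightness, the methods' t-test, adjusted P and each array left out.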

Additional observations from a re-analysis of the deposited data

How the results depend on the processing

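In HIF-1α knockdown 2 members (PDK1 and PDK3) were called under 13 of 15 alternatives and without any 1 array. With array brightness as a covariate 4 were called, PDK2 and PDHA1 being added as higher, and at an adjusted P of 0.05 the count was 0. In GATA3 knockdown the count of 1 (PDK2) became 0 with the processed signal or with normexp scaled to the 75th percentile, with the mean of a gene's probes, with a separate fit of 6 arrays, with eBayes with trend and robust, with the methods' t-test and at an adjusted P, and 3 (PDK1, PDK2 and PDHA1) with array brightness as a covariate. Leaving out 1 array gave 0 to 2: 2 without si-Control replicate 3 (PDK1 and DLAT) or without GATA3 knockdown replicate 2 (PDK1 and PDK3), and 0 without GATA3 knockdown replicate 1, HIF-1α knockdown replicate 2 or HIF-1α knockdown replicate 3. In the direct comparison the count of 3 was 2 to 4 in all settings except adjusted P, where it was 0. PDK2 reversed there with the mean of its 2 probes, to 0.20, where HIF-1α knockdown replicate 1 has only the dimmer probe. That was the 1 change of sign among the 138 alternative values of the 6 called changes, and 45 of the 550 values of the 24 uncalled changes had the other sign. The methods' t-test called 2, 0 and 2 members in the 3 comparisons and 0 after adjustment. Over all genes, the count called in GATA3 knockdown was 1418, and 3050 with the processed signal, 2889 with the authors' log2 table, 723 with RefSeq mRNA probes only, 928 in a separate fit, 4929 with array brightness, 5961 without si-Control replicate 3, 2218 without GATA3 knockdown replicate 2 and 951 without si-Control replicate 2. In HIF-1α knockdown it was 2478, and 1072 with RefSeq mRNA probes only, 4800 without si-Control replicate 1, 1403 without HIF-1α knockdown replicate 1 and 1532 without HIF-1α knockdown replicate 3. In the direct comparison it was 5675, and 2571 with RefSeq mRNA probes only, 8630 in a separate fit, 9436 without si-Control replicate 3, 9710 without GATA3 knockdown replicate 2, and 3284, 2695, 3046 and 2973 without GATA3 knockdown replicate 1 or 3 or HIF-1α knockdown replicate 1 or 3. Arrays with the same number did not deviate together in every pair (r of -0.20 to 0.72, over 0.1 in 7 of 9 pairs). With the replicate block the member counts were 2, 1 and 3, PDK1 changed by -1.78 in HIF-1α knockdown (limma, unadjusted P = 5.35e-04), and all genes called numbered 4181 in HIF-1α knockdown, 2368 in GATA3 knockdown and 8936 in the direct comparison. The cause of these differences was not tested. The number of arrays, 3 a group, limits the precision, and 14 of the 15 probes were well above background on all 9 arrays.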
